A study of Mus musculus with 12 samples.

Results

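The transcriptional response to activation was compared between Tmed10 knockout (KO) and control CD8 T cells, gene by gene, as the activation response of the KO minus that of the control. Of the 12 libraries of the series, 8 entered this comparison, 2 in each of 4 groups, and the other 4 libraries served only to estimate the spread and for 1 further comparison. All cells were CD8 T cells of OT-I/Cas9 mice, with a transgenic T cell receptor that recognises an ovalbumin peptide and constitutive expression of the Cas9 nuclease. The activated Tmed10 KO and activated control cells had been seeded for 24 h on a plate coated with anti-CD3 antibody (2.5 µg/mL), and the resting Tmed10 KO and resting control cells had not. All 8 libraries came from cells that received H2O, the vehicle, and every group carried Cas9, a guide construct with puromycin selection, and medium with IL-2, IL-7 and IL-15. The control cells carried a control guide and the KO cells a guide against Tmed10. Before the guides were delivered, all cells had been stimulated with antibodies to CD3 and CD28, so resting here means not restimulated. The KO population was a pool of edited cells rather than a clone, and the labels do not say whether 2 replicates were separate cultures or separate mice.

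TMED10 belongs to the p24 family of transmembrane cargo receptors, which cycle between the endoplasmic reticulum (ER) and the Golgi in COPII and COPI vesicles and help proteins leave the ER. When a T cell receptor is engaged, CD8 T cells induce immediate early transcription factors of the EGR, NR4A and AP-1 families within minutes to hours, then surface receptors, cytokines and cytotoxic proteins, and the growing load of secretory protein is met by chaperones under the control of the unfolded protein response. A comparison of activation responses sees only a departure from additivity. A gene that differs by the same factor in both states gives no signal in it, and a gene that is called can owe its difference to activated cells, to resting cells or to both. The comparisons within each state were therefore given beside each response difference.

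Libraries held 9089350 to 16481840 counts. The common biological coefficient of variation was 0.0306. Replicates differed by more than counting noise in every group, with a chi-square per degree of freedom from 1.14 in resting KO cells to 2.28 in resting control cells over the 8 libraries compared. The 10 CD8 T cell markers summed to 2833 to 2889 CPM (counts scaled to library size and composition) in activated KO cells, against 2680 to 2768 CPM in activated control cells, and to 4228 to 4233 CPM in resting KO cells, against 4150 to 4204 CPM in resting control cells. Of these 10 markers, Cd2 alone had a called response difference, at −0.28 on the log2 scale. It was at 98.6 and 107 CPM in activated KO cells and 137 and 138 CPM in activated control cells. Of the marker lists for 7 other cell types, Zbtb7b of the CD4 T cell list and Kit of the mast cell list had a called response difference, at 0.49 and 0.42 on the log2 scale, and Cd4 itself stayed between 0.378 and 1.29 CPM in the 8 libraries. The nuclear long RNA Malat1 was at 437 and 400.3 CPM in activated KO cells and 1630 and 989 CPM in activated control cells, and at 733 and 751 CPM in resting KO cells and 2594 and 1540 CPM in resting control cells. It was lower in KO cells in both states, by 1.64 and 1.48 on the log2 scale, with no called response difference (adjusted p = 0.88), and control replicate 1 was above replicate 2 in both states. Its part in the results was not tested. In bulk RNA, fewer cells of a kind and less RNA per cell cannot be told apart.

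Tmed10 (chr12:85340614-85374847 in GRCm38, minus strand) was measured at 55.9 and 58.3 CPM in activated KO cells and 128 and 125 CPM in activated control cells, and at 61.5 and 65.1 CPM in resting KO cells and 116 and 117 CPM in resting control cells. The transcript was thus lower in every KO library, by 1.16 on the log2 scale in activated cells and by 0.89 in resting cells. Its own response difference was −0.27 ± 0.07 (estimate ± SE on the log2 scale, as for every later gene, with Benjamini-Hochberg adjusted p = 0.037 from edgeR's quasi-likelihood test over all genes), since the transcript fell with activation in KO cells and rose in control cells. That call was lost when 5 of the 8 libraries were left out in turn. The abundance of an edited transcript does not measure how many cells lost the protein.

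In both genotypes activation changed most of the transcriptome. Of 13167 genes tested, 9701 (73.7%) were called in the activation response of KO cells and 9714 (73.8%) in that of control cells at a Benjamini-Hochberg adjusted p of 0.05. The log2 responses of all genes tested correlated across genes with a Pearson r of 0.942 and a Spearman rho of 0.941, as a description only, since genes are not replicates. The response difference itself was called for 653 genes (4.96% of those tested), positive for 404 (3.07%) and negative for 249 (1.89%). A positive value means a larger rise, or a smaller fall, in KO cells. The shares of 3.07% positive and 1.89% negative are the yardstick for every gene list below, also where they are not repeated. Most differences were small, with a median size of 0.378 on the log2 scale, and 30 positive and 2 negative genes passed 2-fold. The median over all genes tested was 0.02. At an unadjusted p under 0.05 there were 2138 genes. The count was sensitive to single libraries, at 374 without activated KO replicate 1, 318 and 397 without resting KO replicates 1 and 2, and 402 without activated control replicate 1. DESeq2 called 307.

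**Figure D1:**
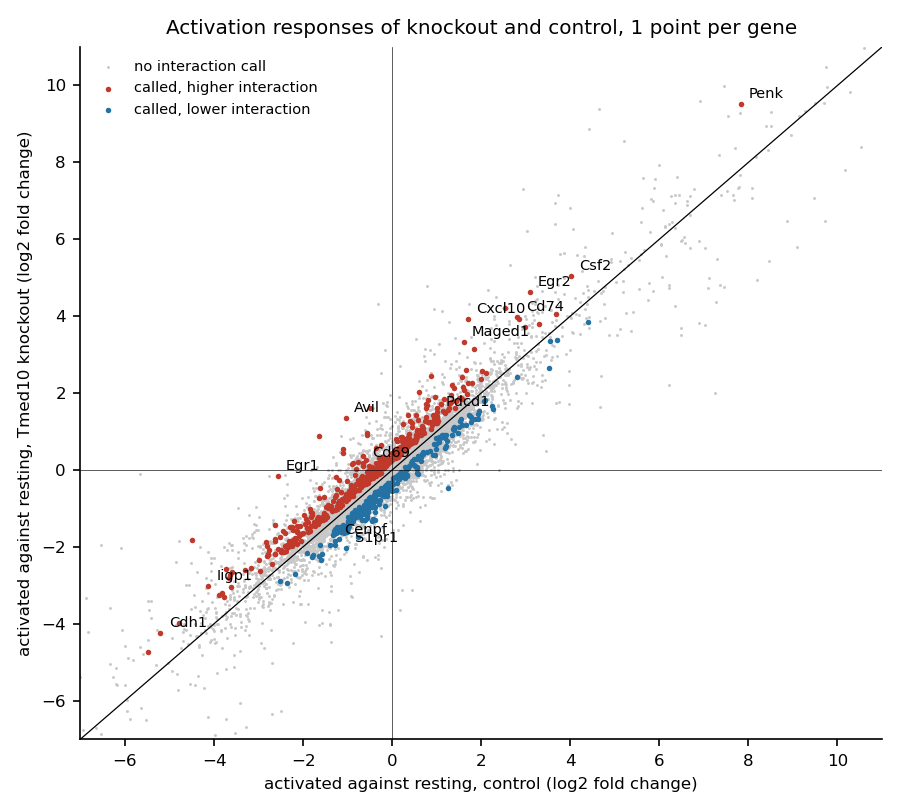
Activation responses of 13145 genes, as log2 fold change of activated over resting cells, in KO cells on the vertical axis and in control cells on the horizontal axis, with the line of equality. Red and blue points are the 404 genes with a positive and the 249 with a negative called response difference, and 22 genes without a call lie outside the plotted range. Called genes flank the line of equality closely, with Egr1 and Avil far above it.

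More of the called genes differed between genotypes in activated than in resting cells. Within activated cells 2583 genes (19.6%) differed between KO and control, 1427 (10.8%) higher and 1156 (8.78%) lower in KO cells. Within resting cells 979 genes (7.44%) differed, 370 (2.81%) higher and 609 (4.63%) lower. Both counts depended on single libraries, at 1686 and 1538 in activated cells without activated KO replicate 1 and activated control replicate 1, and at 317, 471 and 349 in resting cells without resting KO replicate 1, resting KO replicate 2 and resting control replicate 1. The resting split was 521 higher and 504 lower when libraries were scaled by total counts alone. Of the 653 genes with a called response difference, 457 differed between genotypes only in activated cells, 85 only in resting cells, 53 in both states in the same direction, 40 in both states in opposite directions and 18 in neither state taken alone. These classes describe genes already chosen by their response difference and carry no test of their own.

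A missed call in 1 state does not show that the genotypes were alike there, so the interval of the difference was read as well. For 395 of the 457 genes of the activated class, the 95% interval of the resting difference lay within 0.32 either way on the log2 scale. The median size of their difference was 0.368 in activated and 0.0683 in resting cells. For 62 of the 85 genes of the resting class, the interval of the activated difference lay within the same bounds, with median sizes of 0.081 in activated and 0.315 in resting cells. The resting class was mostly positive, 67 genes against 18, which for these genes means that KO cells were lower at rest. The share of called genes that differed only in activated cells ran from 65.1% to 79.6% over all alternatives.

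**Figure D2:**
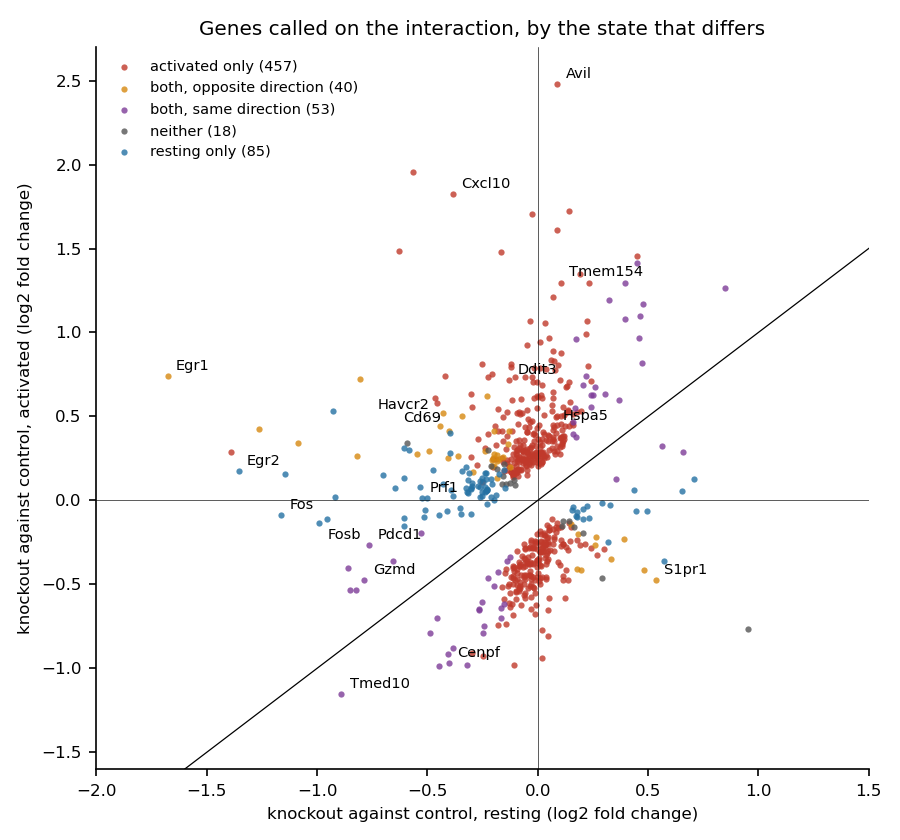
Log2 fold change of KO over control in activated cells (vertical axis) against the same in resting cells (horizontal axis) for genes with a called response difference, coloured by class, with the line of equality. The 457 genes of the activated class stand along the vertical axis and the 85 of the resting class along the horizontal axis, and 1 called gene lies outside the plotted range.

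Many genes differed between KO and control without any called response difference. In 466 genes the genotypes differed in both states in the same direction, 1567 differed in activated cells only and 335 in resting cells only, each without a call on the response difference. For the genes called in 1 state only, the absence of that call leaves the response difference unresolved. The 550 genes with both calls were 21.3% of those that differed in activated cells, and the 178 genes with both calls were 18.2% of those that differed in resting cells.

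Genes of G2 and M phase were lower in activated KO cells. For most of them activation lowered the transcript in both genotypes at 24 h, and lowered it further in KO cells. Of 60 members tested, 47 had a negative called response difference and none a positive one, against 1.89% of all genes with a negative call, and 59 of the 60 estimates lay below 0. The median over the 60 was −0.36, against 0.02 over all genes tested. All 47 fell in both genotypes, with a median response of −1.25 in KO cells and −0.90 in control cells. The difference lay mainly in activated cells, where 56 of the 60 were lower in KO cells, against 8.78% of all genes. In resting cells 4 were lower, against 4.63% of all genes. For 43 of the 47, only activated cells differed, and in all 43 the resting interval lay within 0.32 either way.

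Cenpf (chr1:189640606-189688086), which encodes a centromere protein of late G2 and mitosis, had the largest difference of the called members. It was measured at 40.6 and 42.1 CPM in activated KO cells and 83.8 and 77.6 CPM in activated control cells, and at 148 and 148 CPM in resting KO cells and 202 and 189 CPM in resting control cells. KO cells were lower in both states, and more so after activation, with a response difference of −0.57 ± 0.08 (adjusted p = 5.3e-05). Cenpe, a kinesin that captures kinetochores, behaved likewise, at 61.7 and 63.9 CPM in activated KO cells and 103 and 100 CPM in activated control cells, and at 182 and 177 CPM in resting KO cells and 200 and 203 CPM in resting control cells (−0.53 ± 0.07, adjusted p = 2.2e-05). Kif22, a chromosome-binding kinesin, differed only in activated cells, at 28.3 and 32.7 CPM in KO and 47.2 and 42.8 CPM in control, with 86.0 and 85.8 CPM in resting KO and 89.9 and 89.0 CPM in resting control cells (−0.53 ± 0.09, adjusted p = 0.00081). Ttk, the mitotic checkpoint kinase, followed the same course (−0.51 ± 0.12, adjusted p = 0.013), but lost its call in 2 of the 8 fits without a library and under DESeq2 (adjusted p = 0.15).

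Familiar markers of dividing cells, named after their values were seen, lay in the same range. Mki67, the Ki-67 antigen, was at 246 and 257 CPM in activated KO cells and 479 and 444 CPM in activated control cells, and at 689 and 700 CPM in resting KO cells and 935 and 879 CPM in resting control cells (response difference −0.49 ± 0.08, adjusted p = 0.00037). Its groups did not overlap in either state. Top2a, the topoisomerase that untangles sister chromatids, stood at 479 and 491 CPM in activated KO cells and 629 and 622 CPM in activated control cells, whereas resting cells had 1210 and 1208 CPM in KO and 1230 and 1247 CPM in control (−0.33 ± 0.05, adjusted p = 0.00014). Cdk1 and Ccna2, the kinase and a cyclin that act before mitosis, had differences of −0.43 ± 0.07 and −0.40 ± 0.06. Ccnb1 was not called (−0.30 ± 0.10, adjusted p = 0.099). Leaving out single libraries gave 31 to 45 negative calls in this list and no positive one, and 31 without activated control replicate 1. DESeq2 also gave 31.

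Many genes of this programme share 2 short promoter elements that bind the DREAM complex, MYB-MuvB and NF-Y: the cell cycle homology region (CHR, searched as TTTGAA or TTCGAA on both strands) and the CCAAT box. In RefSeq promoter windows of GRCm38.p6, from 250 bases before to 50 after each start, 40 of the 47 called members were found, with 43 promoters. A CHR stood in 34 of these (79.1%), against 66.7% of the promoters of list members tested but not called and 19.2% of all 32851 promoters. A CHR and a CCAAT together stood in 67.4%, against 66.7% and 7.52%. The elements were thus more frequent in the list as a whole than among all promoters. With only 12 promoters of uncalled members, whether they separate the called members cannot be told. They are shown for the 3 called members of largest difference that hold both, in the direction of the gene, with the CCAAT box and the CHR or its reverse complement in capitals.
Cenpf, chr1:189688059-189688177, minus strand: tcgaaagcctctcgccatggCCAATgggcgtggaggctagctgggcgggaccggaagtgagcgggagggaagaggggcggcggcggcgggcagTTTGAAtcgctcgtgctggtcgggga
Kif22, chr7:127042610-127042670, minus strand: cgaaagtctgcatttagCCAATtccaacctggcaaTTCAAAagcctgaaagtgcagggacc
Ttk, chr9:83834641-83834721, plus strand: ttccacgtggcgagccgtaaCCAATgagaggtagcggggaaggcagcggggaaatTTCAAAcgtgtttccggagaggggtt
The first base of the CHR lay 2 and 7 bases past the first transcribed base in Cenpf and Ttk, and 215 bases before it in Kif22.

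Of 59 genes of S phase and DNA replication tested, 19 had a negative and none a positive called difference, against 1.89% of all genes with a negative call, 58 of 59 estimates lay below 0, and the median was −0.26. All 19 differed only in activated cells, with a resting interval within 0.32 either way in each. Their median response was −0.62 in KO cells and −0.33 in control cells. Tyms, thymidylate synthase, was at 41.8 and 44.1 CPM in activated KO cells and 60.2 and 58.0 CPM in activated control cells, and at 59.4 and 59.2 CPM in resting KO cells and 61.1 and 60.1 CPM in resting control cells (−0.44 ± 0.08, adjusted p = 0.0017). The activated KO libraries alone stood apart. Clspn, an adaptor of the replication checkpoint, had a difference of −0.45 ± 0.08 and Pole, the catalytic subunit of a replicative polymerase, one of −0.41 ± 0.07. Rad51ap1, a recombination factor, had the largest difference of the called members (−0.49 ± 0.12, adjusted p = 0.018) and kept its call in only 4 of the 8 fits without a library. Pcna was not called (−0.20 ± 0.06, adjusted p = 0.071).

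An E2F site (searched as TTTGGCG or TTTCGCG, both strands), the element through which E2F factors act on replication genes, stood in 9 of 19 promoters of called members (47.4%), in 27.3% of the promoters of members not called and in 2.37% of all promoters. Of the 19 called members, 15 were found in the promoter table. The 2 of largest difference that hold a site are shown, with the site in capitals as it reads on the strand of the gene.
Clspn, chr4:126556982-126557028, plus strand: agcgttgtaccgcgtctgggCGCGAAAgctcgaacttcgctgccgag
Pola1, chrX:93632266-93632312, minus strand: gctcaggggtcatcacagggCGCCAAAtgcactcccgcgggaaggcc

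Among G1 regulators, 3 of 20 were called, against 4.96% of all genes. The cyclin-dependent kinase inhibitors Cdkn1b (p27) and Cdkn2b (p15) had positive differences of 0.31 ± 0.08 and 0.39 ± 0.11, and Rbl2 (p130), a pocket protein of the DREAM complex, a negative one of −0.38 ± 0.06. Cdkn1b stood at 43.1 and 46.7 CPM in activated KO cells and 38.7 and 36.5 CPM in activated control cells. Its resting libraries were at 166 and 165 CPM in KO and 177 and 169 CPM in control. Rbl2 was at 192 and 200 CPM in activated KO cells and 272 and 269 CPM in activated control cells. The Cdkn1b call held in 2 and the Cdkn2b call in none of the 8 fits without a library, while that of Rbl2 held in all 8.

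**Figure D3:**
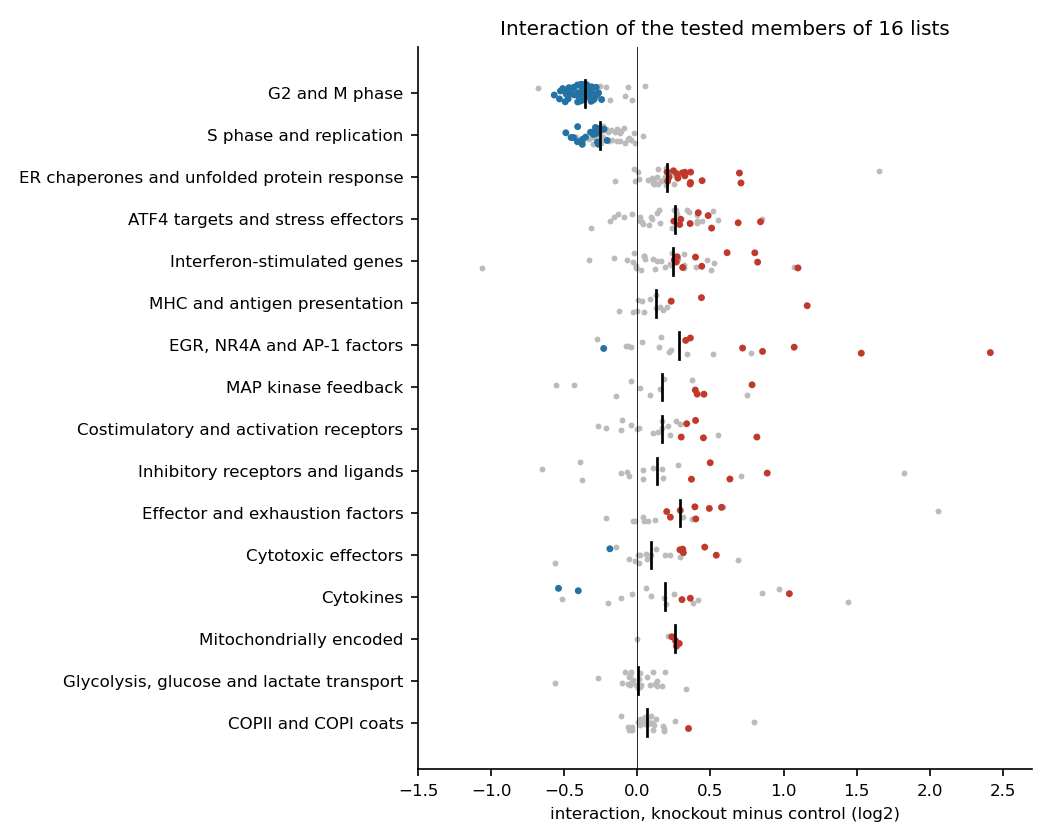
Response difference, KO minus control on the log2 scale, of the tested members of 16 gene lists, 1 point per gene, with called positive members in red, called negative members in blue and the list median as a bar. Ciita (−2.43) and Inhba (−3.39), neither called, lie outside the plotted range. Nearly all G2, M and S phase members lie left of 0, and the members of the ER chaperone list lie mostly right of it.

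Called differences among ER chaperones and components of the unfolded protein response were positive. Of 38 genes tested, 15 had a positive and none a negative called difference, against 3.07% of all genes with a positive call, and the median was 0.20. Of these 15, 10 rose with activation in both genotypes, and the median response of the 15 was 0.67 in KO cells and 0.25 in control cells. The difference lay mainly in activated cells. Of the 38, 34 were higher and 2 lower in activated KO cells, against 10.8% and 8.78% of all genes. In resting KO cells 7 were higher and 1 lower, against 2.81% and 4.63% of all genes. By the calls within states, 12 of the 15 called members differed only when activated, 11 of them with a resting interval within 0.32 either way.

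Hspa5, the ER Hsp70 chaperone BiP, was at 2540 and 2512 CPM in activated KO cells and 1879 and 1848 CPM in activated control cells, and at 731 and 729 CPM in resting KO cells and 688 and 698 CPM in resting control cells (response difference 0.36 ± 0.05, adjusted p = 5.1e-05). Activated KO libraries were the highest of the 4 groups. Sel1l, the scaffold of an ER-associated degradation (ERAD) ligase, was at 218 and 224 CPM in activated KO cells and 150 and 149 CPM in activated control cells, and at 137 and 136 CPM in resting KO cells and 121 and 130 CPM in resting control cells (0.44 ± 0.06, adjusted p = 8.2e-05). Derl1, a channel component of ERAD, had a difference of 0.36 ± 0.07 (adjusted p = 0.0022). Dnajb9, a BiP cochaperone, and Ero1lb, an ER oxidase, had larger but less certain estimates of 0.70 ± 0.16 and 0.71 ± 0.14, and they lost their call under DESeq2. Herpud1, an ERAD component, was higher in KO cells in both states (0.63 activated, 0.31 resting), rose in KO cells and fell in control cells.

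Not every member had a called response difference. Calr and Hsp90b1, both major folding factors, had differences of 0.10 ± 0.06 and 0.11 ± 0.05 (adjusted p = 0.42 and 0.27), and Xbp1 one of 0.11 ± 0.06 (adjusted p = 0.42). Within states, Hsp90b1 was called higher in activated KO cells, by 0.17, and Xbp1 in both states, by 0.26 activated and 0.15 resting. Calr was called in neither state. The number of called members was sensitive to single libraries, at 6 to 8 in 7 of the 8 fits without a library, 13 without resting control replicate 1, and 4 under DESeq2, none of them negative in any fit.

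The ER stress element (ERSE, searched as CCAAT and CCACG with 9 bases between them, on both strands) is bound by ATF6 and XBP1 with NF-Y. It stood in 3 of 12 promoters of called members (25%), in 28.6% of those of members tested but not called, and in 0.119% of all promoters. Of the 15 called members, 11 were found in the promoter table. As with the CHR, the element was more frequent in the list than among all promoters. These promoters were too few to tell whether it separates the called members. The 3 genes are shown with the element in capitals.
Hspa5, chr2:34772005-34772063, plus strand: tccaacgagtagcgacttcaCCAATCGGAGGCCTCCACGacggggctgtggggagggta
Syvn1, chr19:6046512-6046570, plus strand: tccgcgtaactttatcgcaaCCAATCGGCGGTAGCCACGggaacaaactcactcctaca
Pdia6, chr12:17266471-17266529, plus strand: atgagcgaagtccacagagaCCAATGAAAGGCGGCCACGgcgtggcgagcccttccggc
Syvn1, the ERAD ligase that pairs with SEL1L, had a difference of 0.27 ± 0.07 (adjusted p = 0.032). Pdia6, a disulfide isomerase, had one of 0.21 ± 0.06 (adjusted p = 0.049).

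Targets of ATF4 and effectors of the integrated stress response gave 9 positive and no negative calls among 38 tested, against 3.07% of all genes with a positive call, with a median of 0.26. Of these 9, 5 differed only when activated and 4 in both states. Ddit3 (CHOP), a stress-induced transcription factor, was at 17.6 and 16.7 CPM in activated KO cells and 10.6 and 10.4 CPM in activated control cells, and at 17.2 and 16.4 CPM in resting KO cells and 20.5 and 16.8 CPM in resting control cells (0.84 ± 0.15, adjusted p = 0.0012). Its response was 0.03 in KO cells and −0.81 in control cells. Slc1a5, Eif4ebp1, Sesn2 and Ppp1r15a likewise differed only when activated, with differences of 0.25 to 0.36. The remaining 4 were higher in KO cells in both states and more so when activated. Among these, Atf5, a transcription factor, was higher by 1.17 in activated and by 0.48 in resting KO cells (difference 0.69 ± 0.17), and Trib3, a pseudokinase induced by CHOP and ATF4, by 0.97 and 0.46 (0.51 ± 0.09). Stc2, a secreted glycoprotein, was higher by 0.69 and 0.20 (0.48 ± 0.08), and Pck2, the mitochondrial PEP carboxykinase, by 1.26 and 0.85 (0.42 ± 0.08). Asns, asparagine synthetase, was higher in both states by similar amounts (0.62 and 0.46) and was not called on the difference (0.16 ± 0.07, adjusted p = 0.27). Atf4 itself was not called either (0.09 ± 0.06, adjusted p = 0.51). The list had 3 to 7 positive calls with a library left out, the fewest without activated KO replicate 1, and 1 negative call without activated control replicate 1. The ATF4 element, searched on both strands, stood in 0 of the 8 promoters found for 7 of the 9 called members, in 23.3% of those of members tested but not called and in 1.67% of all promoters.

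The neighbouring NRF2 and redox list had 4 positive calls among 22, against 3.07% of all genes. For all 4 the genotype difference was called only in activated cells. Sqstm1 (p62), an autophagy receptor, was at 267 and 277 CPM in activated KO cells and 160 and 171 CPM in activated control cells, and at 222 and 214 CPM in resting KO cells and 201 and 205 CPM in resting control cells (0.61 ± 0.06, adjusted p = 1.0e-06). Its groups did not overlap in either state, and it rose with activation in KO cells and fell in control cells. Srxn1, sulfiredoxin, had a difference of 0.50 ± 0.11, Hmox1, heme oxygenase 1, one of 0.52 ± 0.14, and Nqo1, a quinone reductase, one of 1.06 ± 0.31, at no more than 6.74 CPM in any library. Hmox1 kept its call in 3 and Nqo1 in 2 of the 8 fits without a library, and the list had 2 calls without activated KO replicate 1 or 2, resting KO replicate 1 or activated control replicate 1.

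Of 40 interferon-stimulated genes tested, 10 had a positive and none a negative called difference, against 3.07% of all genes with a positive call, and the median over the list was 0.24. These 10 fell with activation in both genotypes and fell less far in KO cells, with a median response of −1.97 in KO cells and −2.26 in control cells, and 9 of the 10 differed only in activated cells. Iigp1, an immunity-related GTPase, was at 24.2 and 22.8 CPM in activated KO cells and 10.1 and 12.5 CPM in activated control cells, and at 194 and 192 CPM in resting KO cells and 192 and 202 CPM in resting control cells (1.1 ± 0.11, adjusted p = 1.2e-06). The resting groups overlapped and the activated groups did not. Xaf1 (0.80 ± 0.14) and Gbp6, a guanylate-binding protein (0.61 ± 0.10), had the same course. Irf1, a transcription factor that acts on many genes of this list and was named after its values were seen, was at 49.7 and 55.6 CPM in activated KO cells and 38.5 and 37.8 CPM in activated control cells, with 237 and 237 CPM in resting KO and 243 and 229 CPM in resting control cells (0.44 ± 0.09, adjusted p = 0.0022).

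Mx1, an interferon-induced GTPase, was the exception, higher by 0.27 in activated KO cells and lower by 0.55 in resting KO cells (0.82 ± 0.12, adjusted p = 9.9e-05). Isg15 (0.50 ± 0.18, adjusted p = 0.13) and Ifit1 (0.28 ± 0.41, adjusted p = 0.81) were not called. The list had 6 to 9 positive calls with a library left out and 7 under DESeq2. The counts stood at 6 without activated KO replicate 1, activated control replicate 2, resting KO replicate 1 or 2, or resting control replicate 1.

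Cxcl10, the interferon-induced chemokine that recruits CXCR3-bearing cells (chr5:92346638-92348889), was the 1 called member among 9 chemokines tested. It was at 11.9 and 12.2 CPM in activated KO cells and 3.42 and 3.36 CPM in activated control cells, and at 0.864 and 0.655 CPM in resting KO cells and 0.499 and 1.44 CPM in resting control cells (2.21 ± 0.47, adjusted p = 0.0050). The activated groups stood apart while the resting groups overlapped at a level of at most 1.44 CPM. This call did not hold under DESeq2 or without resting control replicate 2. In the list of antigen presentation, 3 of 17 were positive, and 1 was without activated KO replicate 1 or 2, resting KO replicate 2 or activated control replicate 1 or 2. They were Cd74, the MHC class II invariant chain (1.16 ± 0.20), H2-M3, a nonclassical class I molecule (0.44 ± 0.12), and Tap1, a peptide transporter (0.23 ± 0.05). Cd74 is also a marker of myeloid cells. The 16 myeloid markers summed to 66.5 to 66.7 CPM in activated KO cells and 58.5 to 61.5 CPM in activated control cells, and none of the 6 tested had a called response difference. Cd74 was not on that list. It was at 74.1 and 79.5 CPM in activated KO cells and 43.8 and 47.7 CPM in activated control cells, and at 5 and 4.58 CPM in resting KO cells and 6.09 and 6.81 CPM in resting control cells. The part of other cell types in the Cd74 result was not tested.

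**Figure D4:**
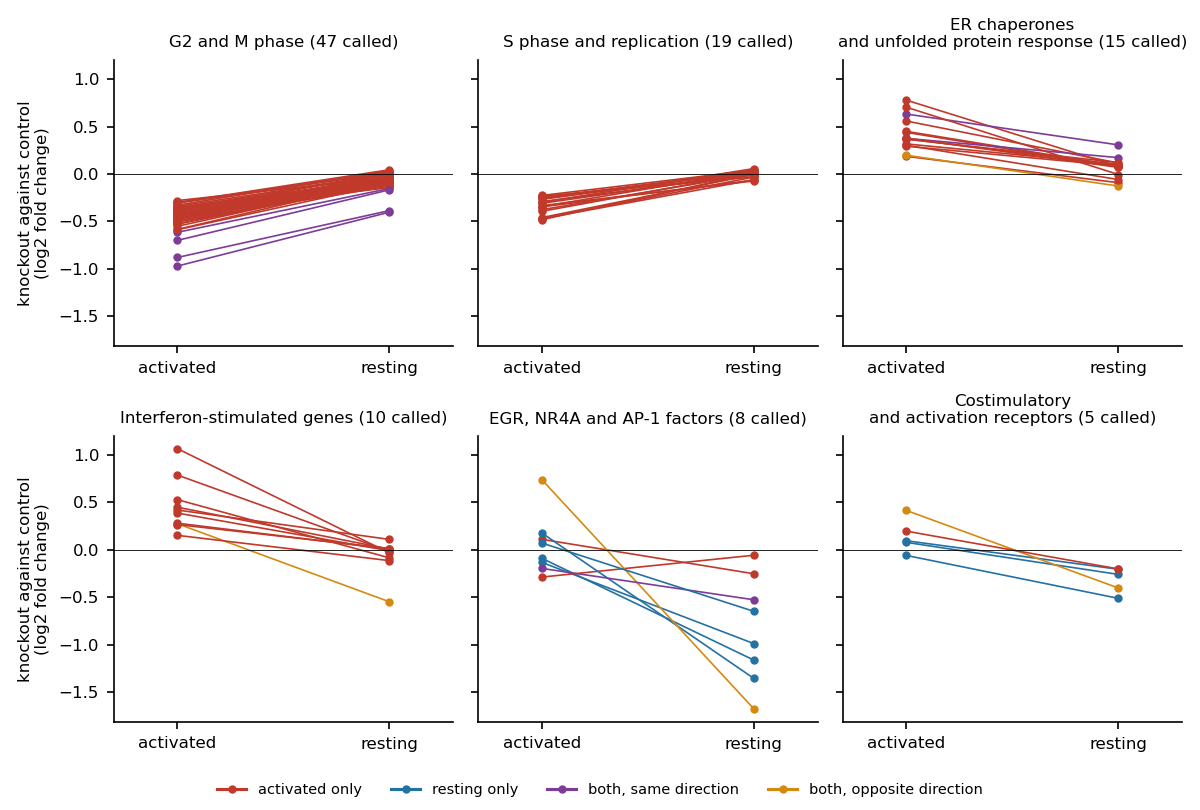
Log2 fold change of KO over control in activated and in resting cells for the called members of 6 lists, with a line for each gene coloured by class. The 47 G2 and M phase genes and the 19 S phase genes sit below 0 when activated and close to 0 at rest, whereas of the 8 genes of the EGR, NR4A and AP-1 list 4 differed only at rest.

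Of 20 genes of the EGR, NR4A and AP-1 families of immediate early factors and their partners, 7 had a positive and 1 a negative called difference, against 3.07% and 1.89% of all genes, and the median was 0.28. By the calls within states, 4 of these 8 differed only at rest, 2 only when activated and 2 in both states. In resting cells 8 of the 20 were lower and none higher in KO cells, against 4.63% and 2.81% of all genes. In activated cells 6 were lower and 2 higher, against 8.78% and 10.8% of all genes. Egr1, the zinc finger factor that follows ERK signalling, had the largest response difference of any gene that met the expression and separation rule. It was at 105 and 104 CPM in activated KO cells and 58.6 and 66.9 CPM in activated control cells, and at 115 and 118 CPM in resting KO cells and 373 and 372 CPM in resting control cells (2.42 ± 0.07, adjusted p = 1.5e-17). Resting control libraries were far above the other 3 groups, and activation lowered Egr1 by 0.15 on the log2 scale in KO cells and by 2.57 in control cells. The genotype difference changed sign between states, at 0.74 in activated and −1.68 in resting cells.

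Egr2, a related factor that restrains activation, was at 38.4 and 39.6 CPM in activated KO cells and 31.1 and 37.8 CPM in activated control cells, and at 1.79 and 1.20 CPM in resting KO cells and 4.40 and 3.78 CPM in resting control cells (1.53 ± 0.28, adjusted p = 0.0011). The activated difference was not called (0.18, 95% interval 0.01 to 0.34), and the resting one was (−1.36). Fos was at 8.97 and 9.04 CPM in activated KO cells and 8.83 and 10.3 CPM in activated control cells, and at 7.84 and 8.08 CPM in resting KO cells and 17.2 and 18.2 CPM in resting control cells (1.07 ± 0.19, adjusted p = 0.00095). Fosb (0.86 ± 0.18) and Ier2 (0.72 ± 0.08) also differed only at rest, and Junb (0.33 ± 0.09) was lower in KO cells in both states, by 0.20 when activated and by 0.53 at rest. Fosl2, a late AP-1 subunit, was the negative call. Nr4a3, an orphan nuclear receptor, was positive (0.36 ± 0.09, adjusted p = 0.015). Its genotype difference was called only in activated cells, at 0.11, but the resting difference was larger in size (−0.25, adjusted p = 0.063). It was at 319 and 316 CPM in activated KO cells and 290 and 298 CPM in activated control cells. At rest it was at 19.2 and 19.1 CPM in KO cells and 23.3 and 22.5 CPM in control cells. Its relative Nr4a1, induced strongly in both genotypes, was not called (0.34 ± 0.25, adjusted p = 0.57), with 106 and 104 CPM in activated KO cells and 96.3 and 97.5 CPM in activated control cells. The list had 4 to 6 positive calls with a library left out, and 4 without activated KO replicate 1 or resting KO replicate 1. DESeq2 called 3, with no adjusted p for the low genes Fos and Fosb.

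**Figure D5:**
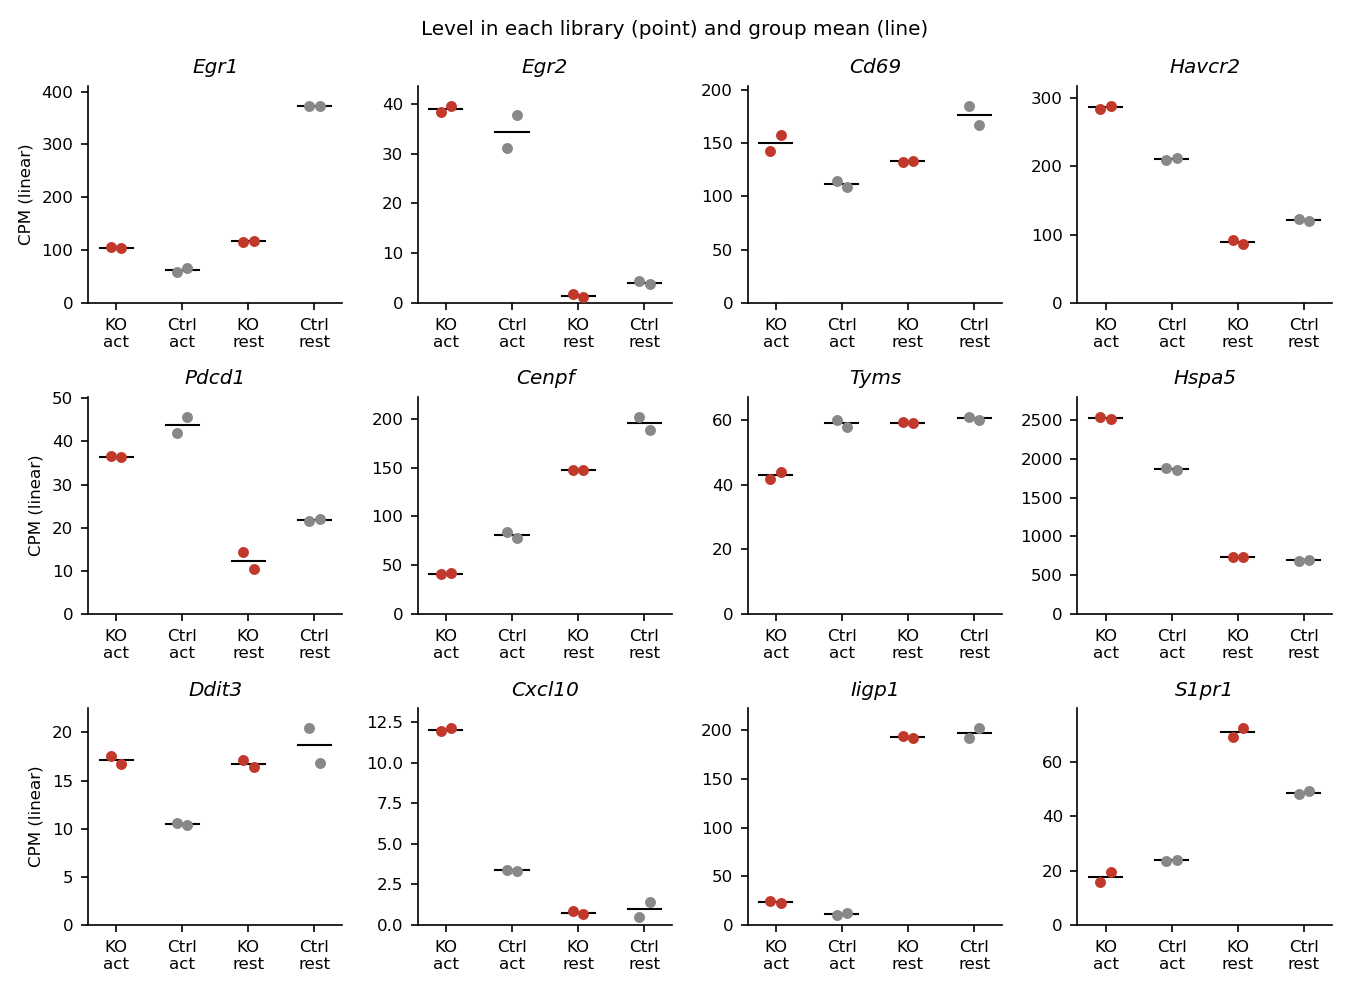
CPM on a linear axis in each library (points) with the group mean (line) for 12 genes, in activated KO, activated control, resting KO and resting control cells. Egr1 is highest in resting control cells (372 and 373 CPM), Hspa5 in activated KO cells (2512 and 2540 CPM), and Tyms is lowest in activated KO cells (41.8 and 44.1 CPM).

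Phosphatases that switch off MAP kinases, which are themselves induced by ERK, were counted with other feedback genes of this pathway. Of 14 feedback genes, 4 were positive and none negative, against 3.07% and 1.89% of all genes. Dusp5 was at 278 and 274 CPM in activated KO cells and 258 and 271 CPM in activated control cells, and at 139 and 134 CPM in resting KO cells and 187 and 173 CPM in resting control cells (0.46 ± 0.06, adjusted p = 8.0e-05). It differed only at rest, as did Dusp4 (0.41 ± 0.09). Dusp2 was higher by 0.29 in activated KO cells and lower by 0.49 in resting KO cells (0.78 ± 0.08, adjusted p = 3.9e-07). Dusp6, an ERK-selective phosphatase, differed only in activated cells (0.40 ± 0.08). Rgs16, a regulator of G protein signalling, changed sign like Dusp2, at 220 and 226 CPM in activated KO cells and 179 and 192 CPM in activated control cells, and at 15.1 and 13.5 CPM in resting KO cells and 26 and 25.4 CPM in resting control cells (1.09 ± 0.11, adjusted p = 5.9e-07).

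Of 21 costimulatory and activation receptors, 5 were positive and none negative, against 3.07% and 1.89% of all genes. In resting cells 6 were lower and 1 higher in KO cells, against 4.63% and 2.81% of all genes. The positive count was 3 without activated KO replicate 1 or resting KO replicate 2. Cd69, the early activation antigen that retains T cells in tissue, was at 143 and 157 CPM in activated KO cells and 115 and 109 CPM in activated control cells, and at 132 and 133 CPM in resting KO cells and 185 and 167 CPM in resting control cells (0.82 ± 0.08, adjusted p = 2.4e-07). It rose with activation in KO cells, by 0.17, and fell in control cells, by 0.65. Icos, a costimulatory receptor, was at 224 and 228 CPM in activated KO cells and 239 and 232 CPM in activated control cells, and at 167 and 165 CPM in resting KO cells and 243 and 231 CPM in resting control cells (0.45 ± 0.06, adjusted p = 7.8e-05). Its response was 0.44 in KO cells and −0.01 in control cells. Cd44, the hyaluronan receptor, and Cd28 differed only at rest too (0.34 ± 0.06 and 0.30 ± 0.06). Cd80, a ligand of CD28 and CTLA-4, was also positive (0.40 ± 0.10). Tnfrsf9 (CD137), an activation marker, was not called on the difference (0.14 ± 0.05, adjusted p = 0.16) or in either state, at 2582 and 2596 CPM in activated KO cells and 2404 and 2516 CPM in activated control cells.

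Among 18 inhibitory receptors and ligands 4 were positive and none negative, and 2 were positive without activated KO replicate 1, resting KO replicate 2 or activated control replicate 1. Havcr2 (TIM-3, chr11:46454935-46481255) changed sign between states, at 284 and 288 CPM in activated KO cells and 209 and 211 CPM in activated control cells, and at 91.5 and 86.3 CPM in resting KO cells and 123 and 120 CPM in resting control cells (0.89 ± 0.06, adjusted p = 2.2e-09). The KO cells thus stood above the control when activated and below it at rest. Vsir (VISTA) fell with activation in both genotypes, less in KO cells (0.37 ± 0.06), and differed only when activated. Nt5e (CD73), an adenosine-producing ectoenzyme, was higher in KO cells in both states, by 1.1 and 0.46 (0.63 ± 0.16).

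Pdcd1, which encodes PD-1 (chr1:94038305-94052553), was lower in KO cells in both states. It was at 36.6 and 36.4 CPM in activated KO cells and 42.0 and 45.7 CPM in activated control cells, and at 14.3 and 10.4 CPM in resting KO cells and 21.6 and 21.9 CPM in resting control cells. The groups did not overlap in either state. The deficit was smaller when activated (−0.26 ± 0.08) than at rest (−0.76 ± 0.11), so the response difference was positive (0.50 ± 0.14, adjusted p = 0.032). This call was lost in 6 of the 8 fits without a library, and under DESeq2 (adjusted p = 0.22). Ctla4, another inhibitory receptor, was lower by 0.45 in activated and by 0.34 in resting KO cells, with no called response difference (−0.11 ± 0.06, adjusted p = 0.42). Lag3 (0.17 ± 0.07), Tigit (−0.38 ± 0.12) and Entpd1 (CD39, −0.06 ± 0.07) were not called on the response difference. Within states, Lag3 was lower in KO cells in both (−0.27 activated, −0.44 resting). Tigit (−0.35) and Entpd1 (−0.19) were called lower in activated KO cells and not called at rest. On the study's own list of 5 candidate TMED10 clients, Pdcd1 and Igf2r, the mannose 6-phosphate receptor (−0.25 ± 0.06), had called response differences of opposite sign. Igf2r, like Pdcd1, was lower in KO cells in both states, by 0.43 when activated and by 0.18 at rest. The study chose that list on these cells from protein measurements, whereas these values are RNA. The list is therefore not independent evidence.

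Among 21 cytotoxic effector genes 5 were positive and 1 negative, and 2 to 4 were positive with a library left out, with 2 without resting KO replicate 1. Prf1, the pore-forming protein perforin, was at 934 and 965 CPM in activated KO cells and 927 and 952 CPM in activated control cells, and at 196 and 203 CPM in resting KO cells and 286 and 289 CPM in resting control cells (0.54 ± 0.06, adjusted p = 3.7e-06). The activated groups overlapped and the interval of their difference, −0.07 to 0.10, was narrow. The granzymes Gzmc, Gzmd, Gzme and Gzmg were lower in KO cells in both states and more so at rest, with response differences of 0.46 ± 0.07, 0.31 ± 0.06, 0.29 ± 0.07 and 0.31 ± 0.09. Gzmc was at 652 and 666 CPM in activated KO cells and 831 and 909 CPM in activated control cells, and at 152 and 160 CPM in resting KO cells and 284 and 282 CPM in resting control cells. These genes are near-identical neighbours on chromosome 14 whose reads can be split among them, so they are not separate results. The Gzmg call was lost in every fit without a library. Gzmb, granzyme B, was lower in both states by similar amounts (−0.15 and −0.16) and had no response difference (0.02 ± 0.05).

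Of 19 transcription factors of effector and exhausted cells, 7 were positive and none negative, but only 2 without activated KO replicate 1 or activated control replicate 2. Eomes, a T-box factor, was at 101 and 106 CPM in activated KO cells and 81.9 and 82.3 CPM in activated control cells, and at 158 and 163 CPM in resting KO cells and 162 and 173 CPM in resting control cells (0.39 ± 0.07, adjusted p = 0.0013). It differed only when activated, as did Zbtb7b (ThPOK) and Rora. Prdm1 (Blimp-1), which promotes effector differentiation, differed only at rest (0.40 ± 0.10), and so did Id2, Hif1a and Zbtb32 (0.20 to 0.29). Tbx21 (−0.01 ± 0.09, adjusted p = 0.97) was not called. Tox, a factor of exhaustion, had a large but uncertain estimate (2.06 ± 0.71, adjusted p = 0.11), since activated libraries held no more than 1.18 CPM. Within states Tox was higher in KO cells, by 3.03 when activated and by 0.97 at rest, both called. Resting libraries held 12.5 and 10.8 CPM in KO and 6.39 and 5.75 CPM in control.

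Over all genes, 3.07% were positive and 1.89% negative. Of 21 genes of naive and memory T cells 2 were positive and 4 negative, and of 20 trafficking and homing receptors 3 were positive and 2 negative. Without resting control replicate 2 the negative calls were 2 and 0. S1pr1, the receptor through which T cells leave lymphoid organs, had the largest negative difference under the naming rule. It was at 15.7 and 19.5 CPM in activated KO cells and 23.7 and 24.0 CPM in activated control cells, and at 69.1 and 72.5 CPM in resting KO cells and 48.1 and 49.2 CPM in resting control cells (−1.01 ± 0.12, adjusted p = 5.2e-06). KO cells were higher at rest and lower when activated, the mirror image of Cd69. Tcf7 (TCF-1), the factor of memory and stem-like cells, fell with activation in both genotypes, and less in KO cells. It was at 48.7 and 48.2 CPM in activated KO cells and 28.8 and 30.6 CPM in activated control cells, and at 231 and 229 CPM in resting KO cells and 207 and 210 CPM in resting control cells (0.57 ± 0.08, adjusted p = 0.00014). Il7r was lower in KO cells in both states, more at rest (0.30 ± 0.06). The chemokine receptor Cxcr6 had a positive difference of 0.36 ± 0.07, from activated cells, and Ccr4 and Gpr18 had negative ones of −0.26 ± 0.07 and −0.34 ± 0.07.

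Cytokines went both ways, beside 3.07% positive and 1.89% negative calls over all genes. Of 24 tested, 3 were positive and 2 negative, all 5 induced in both genotypes, and none was positive without resting KO replicate 1. Il24, an IL-10 family cytokine, was at 466 and 474 CPM in activated KO cells and 933 and 930 CPM in activated control cells, and at 31.2 and 34.2 CPM in resting KO cells and 45.3 and 43.3 CPM in resting control cells (−0.54 ± 0.08, adjusted p = 0.00022). Lif was lower only in activated KO cells, at 377 and 371 CPM against 521 and 524 CPM in activated control cells (−0.40 ± 0.06, adjusted p = 8.0e-05). Csf2 (GM-CSF) was the reverse, at 116 and 117 CPM in activated KO cells and 72.4 and 82.9 CPM in activated control cells, with 3.46 to 4.92 CPM in all resting libraries (1.04 ± 0.21, adjusted p = 0.0027). Tnf differed only at rest (0.36 ± 0.08) and lost its call in 4 of the 8 fits without a library and under DESeq2, and Tnfsf11 (0.31) was also positive. Ifng was lower in activated KO cells, at 3783 and 3939 CPM against 4456 and 4664 CPM in activated control cells, but rose about equally in both genotypes, by 9.20 and 9.14 on the log2 scale in KO and control cells (0.06 ± 0.13, adjusted p = 0.93). Il2 had no read in the 4 resting libraries, so no response difference could be given. In activated cells it was at 20.6 and 21 CPM in KO and 15.8 and 16 CPM in control (0.39 ± 0.10, adjusted p = 0.0095). Penk, preproenkephalin, rose by 9.51 in KO cells and 7.83 in control cells, but that difference (1.68 ± 0.46, adjusted p = 0.036) rested on resting libraries with at most 1.06 CPM and held in 1 of the 8 fits without a library.

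Several of the largest differences lay outside these lists. Avil (advillin, an actin-regulating protein of the villin family, chr10:127000709-127020994) was at 20.5 and 25.9 CPM in activated KO cells and 3.75 and 4.36 CPM in activated control cells, and at 9.44 and 7.86 CPM in resting KO cells and 9.49 and 7.42 CPM in resting control cells (2.39 ± 0.24, adjusted p = 8.2e-07). It rose with activation in KO cells and fell in control cells, and its resting groups overlapped. Tmem154, a membrane protein, was at 33.6 and 33.1 CPM in activated KO cells and 14.4 and 12.8 CPM in activated control cells, while resting libraries held 90.7 and 91.3 CPM in KO and 83.9 and 85.3 CPM in control (1.19 ± 0.10, adjusted p = 2.4e-08). Maged1, a MAGE family adaptor (1.73 ± 0.42), and Angptl6, a secreted angiopoietin-like protein (1.58 ± 0.34), also differed only when activated. Npnt, an extracellular matrix protein (1.43 ± 0.21), and Bcl2a1d, an antiapoptotic BCL2 relative (1.69 ± 0.35), changed sign between states. Bcl2a1d is 1 of several near-identical copies, so the assignment of its reads is uncertain.

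Of the largest negative differences, Tgm2, tissue transglutaminase, changed sign. It was at 68.1 and 66.4 CPM in activated KO cells and 88.1 and 91.5 CPM in activated control cells, and at 172 and 167 CPM in resting KO cells and 122 and 122 CPM in resting control cells (−0.89 ± 0.07, adjusted p = 5.2e-09). Tnfsf10 (TRAIL), a death ligand, did the same (−0.68 ± 0.11). Sema4f, a semaphorin, and Castor1, the arginine sensor of mTORC1, were lower only in activated KO cells (−0.85 ± 0.12 and −0.79 ± 0.13). Adarb1, an RNA-editing enzyme, Smtn, a cytoskeletal protein, Thra, a thyroid hormone receptor, and the cell cycle genes Oip5 and Fam83d completed the 10, with differences of −0.96 to −0.70 and with 2 to 6 calls in the 8 fits without a library.

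Genes that were higher in KO cells in both states, and more so when activated, included Cdh1 (E-cadherin), which activation lowered by 4.24 in KO cells and by 5.20 in control cells (0.97 ± 0.23), Thrb (0.90 ± 0.22), Trib2 (0.87 ± 0.19) and Aqp9, an aquaglyceroporin (0.78 ± 0.08). Of the 18 genes called in neither state, Dgat2, an enzyme of triglyceride synthesis, had the largest difference (0.93 ± 0.28, adjusted p = 0.0499), and no fit without a library kept it.

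Genes of vesicle coats and cargo receptors had few called response differences, although many differed within a state. Of 27 COPII and COPI coat genes, 18 were higher and none lower in activated KO cells, against 10.8% of all genes higher, and 15 were higher and none lower in resting KO cells, against 2.81% of all genes, yet only Sec24d, a COPII cargo adaptor, was called on the difference (0.35 ± 0.09, adjusted p = 0.018). It was at 119 and 129 CPM in activated KO cells and 65.9 and 74.2 CPM in activated control cells, and at 66.5 and 66.6 CPM in resting KO cells and 48.8 and 47.4 CPM in resting control cells. Of 17 KDEL receptors and ER cargo receptors, 11 were higher in activated and 4 in resting KO cells and none had a called difference. In the TMED family, Tmed5 had a positive difference (0.24 ± 0.06) and lost it in 6 of the 8 fits without a library. Tmed2 (0.18 ± 0.10, adjusted p = 0.39) and Tmed9 (0.02 ± 0.07, adjusted p = 0.94) were not called. Tmed9 was higher in KO cells by 0.22 when activated and 0.20 at rest.

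Metabolic lists held 1 call in all. None of 26 genes of glycolysis and glucose transport and none of 24 genes of fatty acid oxidation was called, with list medians of 0.01 and −0.02, and 1 of 31 cholesterol genes was, Lss (−0.21 ± 0.06). Transcripts encoded by mitochondrial DNA had 4 positive calls of 7 tested (mt-Co1, mt-Nd2, mt-Nd4 and mt-Nd5, 0.24 to 0.29), at 1.39% to 1.5% of counts mitochondrial in activated KO libraries, 1.28% to 1.32% in activated control, at most 1.27% in resting KO and 1.27% to 1.39% in resting control libraries. These calls fell to 0 without activated KO replicate 1, resting KO replicate 1 or 2, or resting control replicate 2, and to 1 without activated control replicate 1 or 2. Among 24 p53 targets 5 were positive and 1 negative, led by Plk2, a polo-like kinase (0.72 ± 0.12, adjusted p = 0.00044). The positive calls were 3 under DESeq2 and fewer than 5 in every fit without a library. In the BCL2 family the BH3-only genes Bcl2l11 (BIM, 0.35 ± 0.08) and Bbc3 (PUMA, 0.62 ± 0.16) were positive and called higher only in activated KO cells. DESeq2 called neither on the response difference. Of 32 lysosomal genes, 3 were positive and 1 negative, and each kept its call in at most 3 of the 8 fits without a library.

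The other perturbation of the series gave a second yardstick. AGN192403 (100 µM), which the study used as a TMED inhibitor, was given to control-guide cells, and the activation response of the KO was set against the response of those cells. The 2 comparisons share the KO libraries, so their values are only set side by side. Replicates of activated AGN192403-treated cells had a chi-square per degree of freedom of 3.96, the highest of all groups in the fit. The responses of KO and AGN192403-treated cells differed in 1221 genes (9.27%), 809 higher and 412 lower in the KO, and the split was 565 and 537 with median-ratio scaling. The count was 519 under DESeq2 and ran from 463 to 1727 with a library left out. Egr1 had a difference of 0.78 against AGN192403-treated cells and 2.42 against control, both called. S1pr1 had 0.93 and −1.01, Tgm2 0.55 and −0.89, Tnfsf10 0.82 and −0.68, Il24 0.81 and −0.54 and Lif 0.66 and −0.40, all called, so for these 5 genes the KO response lay between that of the control and that of AGN192403-treated cells. Avil (−0.16), Tmem154 (−0.12), Havcr2 (−0.13), Cenpf (0.15) and Iigp1 (−0.36, called) had values of at most 0.36 in size against AGN192403-treated cells. A missed call there does not show that the 2 perturbations act alike.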

How the data were processed

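RNA was measured in 12 libraries, of which 8 were compared here. The values are whole-number read counts per gene, deposited by the authors as a table of the whole series without normalization. The submitters' processing notes name STAR 2.6.0c, HTSeq, GRCm38 and mm10. A different release of STAR is given in the published methods. Whether counting used strand is not given in the sources used here, so overlapping and antisense genes cannot be told apart. Of 46603 identifiers, 46005 matched a symbol in the GENCODE annotation of GRCm38, which also gave coordinates, and promoters came from RefSeq (GRCm38.p6).

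Counts were filtered with filterByExpr, scaled by TMM and fitted over all 12 libraries in 6 groups with the quasi-likelihood test of edgeR 4.0.16 (R 4.3.3), on 6 residual degrees of freedom. Adjusted p-values are Benjamini-Hochberg values over 13167 genes, called at 0.05. These genes held 99.9% of counts. The response difference is activated minus resting KO cells, minus the same in control cells. The procedure was tested on simulated data. CPM are not corrected for length, so levels were not compared between genes. Python 3.11.15 was used for tables.

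The 2 replicates of a group are not stated to be separate cultures or animals, so p-values measure only the spread between these libraries, which may be technical. Genes were named by rule: 11 genes fixed by name, the 10 largest called differences in each direction among genes with at least 10 CPM in the highest group and every KO response on 1 side of every control response, the 4 largest of each class, and up to 4 called members of each of 32 gene lists and 8 marker lists. Genes outside this rule (Mki67, Top2a, Cdk1, Ccna2, Irf1, Hspa5, Junb and the like) and all uncalled list members were picked after their values were seen. The members and lists were chosen with earlier results of these data known. Alternatives were no expression filter, at least 5 CPM in 2 libraries, median-ratio scaling, library totals, a replicate block, DESeq2 1.42.0, a fit on the compared libraries alone, and leaving out single libraries. Some genes that this rule names are not reported here.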

Additional observations from a re-analysis of the deposited data

Results flagged for a closer look

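The responses of KO and control cells differed, by the test of the difference itself, in 653 genes, and those of KO and AGN192403-treated cells in 1221 genes. In 26 of the 653 the response was called in both genotypes and pointed opposite ways.

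In 18 of these, activation raised the transcript in KO cells and lowered it in control cells. The response difference was 2.39 for Avil, 1.004 for Fam114a1, 0.94 for Klrc1 (an NK receptor gene with near-identical neighbours), 0.84 for Glce, 0.82 for Cd69, 0.61 for Sqstm1, 0.55 for Pou2f2, 0.54 for Anxa5, 0.52 for Stk32c, 0.48 for Glipr1, 0.45 for Blcap, 0.40 for Gem, 0.37 for mt-Rnr2, 0.33 for Herpud1, 0.29 for Cd53, 0.29 for Mxi1, 0.27 for mt-Nd5 and 0.24 for Plekhb2. Most single responses were small, as for Cd53, at 0.14 in KO cells and −0.16 in control cells, and Avil had the largest, at 1.35 and −1.04.

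In the other 8, activation lowered the transcript in KO cells and raised it in control cells. The difference was −0.48 for Tspan13, −0.46 for Cyth1, −0.38 for Rbl2, −0.376 for Klk8, −0.3753 for Cdc45, −0.35 for Dut, −0.27 for Tmed10 and −0.25 for Osbpl3. Cdc45 and Dut are genes of DNA replication and nucleotide metabolism.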

How the results depend on the processing

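DESeq2 called 307 genes on the response difference (303 of them among the 653), 1355 between KO and control when activated, 366 at rest and 519 between KO and AGN192403 responses. With a library left out these 4 counts ran from 318 to 473, from 1538 to 2642, from 317 to 1085 and from 463 to 1727. The share of positive calls was 61.9%, against 52.3% with median-ratio scaling, 54.0% with library totals and 73.7% with no expression filter. In some fits with a library left out, negative calls outnumbered positive ones, so the positive majority was not stable.

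The replicate numbers were not taken as pairs, since not every pair of groups correlated over 0.1 in its deviations. The correlation was 0.189 between activated and resting control cells, 0.213 and 0.239 between activated AGN192403-treated cells and activated and resting control cells, and at most 0.0288 in the other 12 pairs. With a replicate block 834 genes were called, including all 653, and 2993 differed when activated, 1398 at rest and 1536 between KO and AGN192403.

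Of 117 called genes named by the rule, none reversed. They lost their call in 66 of 805 values under other settings and in 288 of 936 with a library left out, and 51 were called throughout. Tmed9, not called, turned to −0.0046 with median-ratio scaling, −0.0026 with library totals and −0.0069 under DESeq2, and ran from −0.085 to 0.041 with a library left out. Ifng, not called, ran from −0.042 to 0.19 with a library left out. Depth limited genes with few resting reads, such as Penk with 9 reads over both resting KO libraries.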
